A study of Mus musculus with 31 samples.

Results

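Matrix metalloproteases (Mmp), the Adamts proteases and their tissue inhibitors (Timp) were followed through the mammary lesions of K5ΔNβcat mice and in sorted mammary basal cells. Every probe set whose only annotated gene symbol began with Mmp or Adamts and a number, or was one of Timp1 to Timp4, was taken. This gave 70 of the 45037 probe sets of the array and 37 of the 18193 genes that had a probe set of their own, namely 18 Mmp, 15 Adamts and 4 Timp genes. A gene with several probe sets was represented by the brightest one over the arrays of a fit, and values are those of that probe set unless another is mentioned.

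The tissue samples were tumors (n = 11), large hyperplasias (n = 5) and small hyperplasias (n = 5) of K5ΔNβcat mice, and mammary tissue of control mice (n = 4). In K5ΔNβcat mice the keratin 5 promoter drives a stabilised, N-terminally truncated β-catenin in the basal layer of the mammary epithelium. The sorted samples were basal cells of K5creMycL/L mice (n = 3), in which Cre expressed from the keratin 5 promoter removes Myc, and basal cells of control mice (n = 3). Each sorted sample was a pool of several mice, gated on CD24 and high CD49f. The labels give the strain of all samples as C57BL6, whereas the study's methods describe a mixed 129SV/C57BL6 background, and no ages are given. The labels do not say that the tissue samples came from separate animals, so the tests cover the spread among these samples, which may be technical.

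Values are linear signals of Affymetrix arrays, scaled by the authors to a common target of 100 on every array, and a signal of 30 is the background cut-off of the study. A signal depends on the probes and was not compared between genes. Between 46.2% and 51.9% of probe sets reached a signal of 30 on the tissue arrays, and between 38.5% and 42.8% on the arrays of sorted cells, which were amplified with another kit and were never tested against tissue. The median signal was 29.1 to 29.6 on the arrays of tumors 1, 2 and 3 and 23.9 to 26.7 on those of the other tumors. The basal epithelial markers summed to values between 824 and 1184 in control tissue, 4414 and 5959 in small hyperplasias, 5443 and 9669 in large hyperplasias and 8657 and 13630 in tumors, and to 15570 to 21780 in sorted basal cells, where luminal markers still summed to 6645 to 10090. In whole tissue, fewer cells of a type and less RNA per cell cannot be told apart.

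Mmps are zinc-dependent proteases that are made as inactive precursors and cut the proteins of the extracellular matrix. Collagenases open fibrillar collagen, gelatinases degrade denatured and basement membrane collagen, stromelysins and matrilysin cut a wide range of matrix proteins and other precursors, and membrane-type Mmps act at the cell surface. Adamts proteases carry thrombospondin repeats and include proteoglycan-cutting enzymes that act on versican and aggrecan. Timps block Mmps by occupying their active site, and Timp3 also inhibits several Adam and Adamts proteases. In the mammary gland these families are known for their part in branching, involution and tumor invasion.

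Of the 18 Mmp genes, 9 lie beside each other on mouse chromosome 9, in the order Mmp13, Mmp12, Mmp1b, Mmp3, Mmp1a, Mmp10, Mmp8, Mmp20 and Mmp7, and this cluster of 10 Mmp genes has no other protein-coding gene inside it in the RefSeq annotation of GRCm38.p6. Stretches before the start site, of 120 bases each, are shown for the 6 genes of the cluster whose signals are given in full below, so that the genes that moved can be set beside the letters in front of them. Capitals mark TGAGTCA, the site of AP-1 (Fos and Jun proteins), and TATAAA, the TATA box, each on either strand.
Mmp13 (chr9:7272394-7272513, + strand): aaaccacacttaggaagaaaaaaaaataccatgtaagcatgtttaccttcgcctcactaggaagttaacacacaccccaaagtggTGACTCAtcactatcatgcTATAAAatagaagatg
Mmp12 (chr9:7347254-7347373, + strand): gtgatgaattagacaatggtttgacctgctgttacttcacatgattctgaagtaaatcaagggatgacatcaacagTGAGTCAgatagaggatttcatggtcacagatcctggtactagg
Mmp3 (chr9:7445702-7445821, + strand): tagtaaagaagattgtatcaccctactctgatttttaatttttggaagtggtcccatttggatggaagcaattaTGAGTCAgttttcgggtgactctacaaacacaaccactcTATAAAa
Mmp10 (chr9:7502222-7502341, + strand): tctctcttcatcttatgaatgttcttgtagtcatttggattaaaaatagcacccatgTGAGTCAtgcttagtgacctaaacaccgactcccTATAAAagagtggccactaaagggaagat
Mmp8 (chr9:7558309-7558428, + strand): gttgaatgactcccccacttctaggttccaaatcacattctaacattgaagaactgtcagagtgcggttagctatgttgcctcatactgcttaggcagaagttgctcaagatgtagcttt
Mmp7 (chr9:7691970-7692089, + strand): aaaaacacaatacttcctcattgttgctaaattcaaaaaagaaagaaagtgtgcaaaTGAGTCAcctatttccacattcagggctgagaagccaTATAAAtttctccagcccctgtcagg

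RefSeq promoters, reaching from 250 bases before to 50 bases after the start, were matched for 23 of the 37 genes, with 26 start sites in all. No promoter was matched for Adamts4, Adamts5, Adamts6, Adamts7, Adamts8, Adamts10, Adamts15, Adamts16, Adamts19, Mmp2, Mmp9, Mmp16, Mmp17 and Mmp19. TGAGTCA on either strand was found in 7 genes, which were Mmp1a, Mmp1b, Mmp3, Mmp7, Mmp10, Mmp12 and Mmp13, against 5.2% of the 32851 promoters of the table. All 7 lie in the chromosome 9 cluster, where Mmp8 and Mmp20 did not have these letters in the window. No capitals stand in the stretch of Mmp8. The site began 35 bases before the start in Mmp13, 44 in Mmp12, 46 in Mmp3 and 63 in both Mmp10 and Mmp7. Mmp12 and Mmp7 each have another annotated start whose window lacked it, and for both genes only the stretch with the site is shown. The stretch not shown lies upstream of the one shown for Mmp12 (chr9:7344277-7344396) and downstream of it for Mmp7 (chr9:7692221-7692340). Neither holds a marked string. TATAAA on either strand was found in 10 of the 23 genes, 9 of them of the cluster and the other Adamts1, against 13.6% of all promoters. Its position was not part of the match. In Mmp12 the letters lie after the start, from base 5, and in Mmp8 on the other strand, from 3 bases before the start. CTTTGA on either strand, the core letters bound by Tcf proteins, the partners of β-catenin, was found in Mmp1a, Mmp7 and Timp1, against 16% of all promoters. The strings do not overlap one another in the stretches shown, and a match of letters is a description and not a measured binding site.

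In tumors, compared with control tissue, the collagenases Mmp8 and Mmp13, the stromelysins Mmp3 and Mmp10, the gelatinase Mmp9 and the membrane-type Mmp14 were higher, as was Timp1, whereas the other Timp genes and Adamts5 were lower. Of the 37 genes, 26 reached a median of 30 in either group and were tested, and 11 were higher and 8 lower at an adjusted p under 0.05 in limma. The background was high, with 33.1% of all 24086 tested probe sets higher and 35.8% lower, so that the 73.1% of members called stood against 68.9% of all tested probe sets. The median difference of the members tested was 0.28 on the log2 scale and that of all probe sets -0.032. By family, 9 Mmp genes were higher and 1 lower of 12 tested, 1 Adamts gene was higher and 4 lower of 10, and 1 Timp gene was higher and 3 lower of 4. The groups did not overlap for 14 of the 26 genes, against 41.7% of all tested probe sets. Differences are of mean log2(signal + 16), which understates the change of dim genes, and are given with the standard error of limma.

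**Figure D1:**
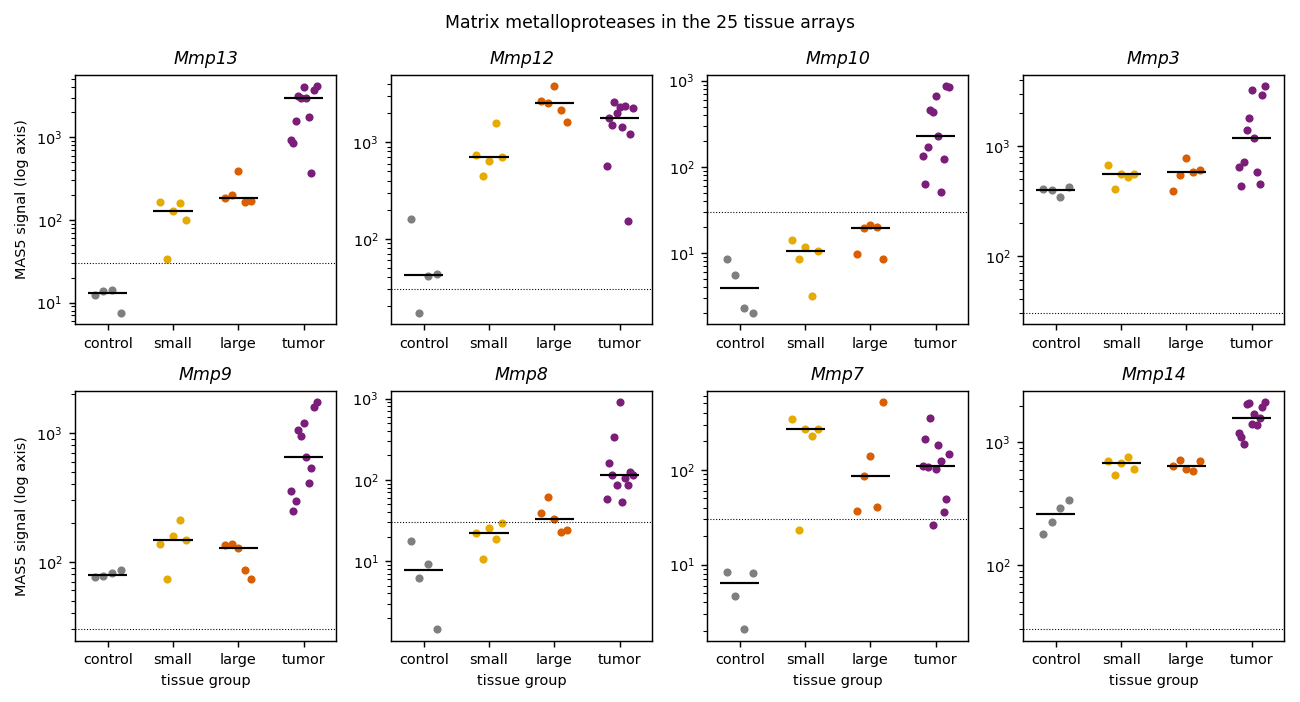
MAS5 signal (log axis) of 8 Mmp genes on the 25 tissue arrays by tissue group, with 1 point per array, a bar at the group median and a dotted line at the background cut-off of 30. Mmp10 lies below 30 on every array but those of the 11 tumors, whereas Mmp12 lies at 152 to 2583 in tumors and at 1618 to 3813 in large hyperplasias.

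Mmp13, collagenase 3, had the largest rise of the members in tumors against control tissue. Its signals were 12.2, 13.9, 14.1 and 7.50 in the 4 control tissues, 167, 33.8, 127, 161 and 99.0 in small hyperplasias, and 186, 202, 389, 167 and 169 in large hyperplasias. In tumors its signal ran from 366 over a median of 2946 to 4174. All 4 control tissues were thus below the background cut-off, all lesions above it, and tumor 9 was the only tumor within the range of large hyperplasias. In tumors Mmp13 exceeded control tissue at least 64.2-fold (log2 difference 6.13 ± 0.46, adjusted p = 7.4e-12), at least 7.02-fold in large hyperplasias (3.03 ± 0.53, adjusted p = 4.2e-05) and at least 3.42-fold in small hyperplasias (2.13 ± 0.53, adjusted p = 0.0032), each taken against a signal of 30. It was also higher in tumors than in large hyperplasias (3.10 ± 0.42, adjusted p = 1.4e-06).

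Mmp8, the collagenase stored by neutrophils, had signals of 17.7, 6.17, 9.16 and 1.45 in control tissue, 22.1, 10.7, 25.4, 18.5 and 29.2 in small hyperplasias and 38.8, 60.8, 32.6, 22.8 and 24.4 in large hyperplasias. In tumors its signal ran from 53.4 over a median of 116 to 905, with tumor 6 highest. Tumors exceeded control tissue at least 4.36-fold (2.65 ± 0.42, adjusted p = 3.7e-06) and were also above large hyperplasias (1.58 ± 0.39, adjusted p = 0.0013). In large hyperplasias against control tissue the difference did not pass the test (1.07 ± 0.48, adjusted p = 0.070), although those groups did not overlap, and it passed with no offset, with only the compared groups fitted, with a replicate block and by the methods' t-test. Neutrophil markers moved with the tissue groups: 9 of them summed to values between 1359 and 2186 in control tissue, 2450 and 4988 in small hyperplasias, 2968 and 10270 in large hyperplasias and 8628 and 18150 in tumors. In control tissue 4 of the 9 (Cxcr2, Ngp, Camp and Mpo) were below 30 on every array. In tumors against control tissue 7 of the 8 tested were higher, against 33.1% of all tested probe sets. The part of neutrophils in the Mmp8 signal was not tested.

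The stromelysins Mmp3 and Mmp10 rose in tumors. In the hyperplasias against control tissue Mmp10 was too dim to test, and Mmp3 was not called, although it was called higher in both with only the compared groups fitted. Mmp10 had signals of 8.54, 5.64, 2.32 and 2.02 in control tissue, 14.3, 8.48, 11.9, 3.19 and 10.5 in small hyperplasias and 9.66, 19.5, 21.4, 20.2 and 8.54 in large hyperplasias, all below 30, and ran from 50.7 over a median of 230 to 870 in tumors. Tumors therefore exceeded control tissue at least 8.21-fold (3.72 ± 0.50, adjusted p = 3.0e-07), with the same bound against large hyperplasias (3.11 ± 0.46, adjusted p = 4.4e-06). Mmp3 was already well above background in control tissue, at 404, 397, 341 and 421. Its signals were 672, 404, 556, 521 and 559 in small hyperplasias and 388, 545, 788, 586 and 603 in large hyperplasias, and ran from 435 over a median of 1189 to 3555 in tumors. The lowest tumors lay inside the range of the hyperplasias, but above every control tissue. Mmp3 was higher in tumors than in the control mammary tissue (1.55 ± 0.42, adjusted p = 0.0022) and than in large hyperplasias (1.03 ± 0.39, adjusted p = 0.029), and the second call was lost without large hyperplasia 1 (adjusted p = 0.084) or 2 (adjusted p = 0.054).

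Mmp9, a gelatinase of neutrophils and macrophages, had signals of 75.6, 77.6, 81.6 and 86.8 in control tissue, 138, 73.5, 158, 213 and 147 in small hyperplasias and 135, 137, 128, 86.9 and 73.8 in large hyperplasias. Tumors ran from 250 over a median of 657 to 1737, all above every other tissue. In tumors Mmp9 was higher than in control tissue (2.84 ± 0.38, adjusted p = 2.6e-07) and than in large hyperplasias (2.46 ± 0.35, adjusted p = 2.3e-06), and its other probe set gave 2.86 ± 0.41 against control tissue. Mmp2, the gelatinase made by stromal cells, moved the other way and by little, at 500, 476 and 496 in tumors 1 to 3 and 595 to 1211 in the other tumors, against 864 to 1080 in control tissue. Its difference from control tissue (-0.49 ± 0.18, adjusted p = 0.021) was lost without control tissue 2 (adjusted p = 0.060) or 3 (adjusted p = 0.056) and without tumors 1 to 3.

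Mmp14, the membrane-type protease that with Timp2 activates the Mmp2 precursor, had signals of 179, 225, 295 and 339 in control tissue, 702, 546, 676, 755 and 606 in small hyperplasias and 639, 714, 607, 587 and 709 in large hyperplasias, and ran from 976 over a median of 1598 to 2136 in tumors. Neither the hyperplasias and control tissue nor the tumors and hyperplasias overlapped. The differences were 2.54 ± 0.17 in tumors (adjusted p = 1.4e-12), 1.31 ± 0.20 in large hyperplasias (adjusted p = 8.5e-06) and 1.32 ± 0.20 in small hyperplasias (adjusted p = 2.3e-05), each against control tissue. Tumors exceeded large hyperplasias by 1.24 ± 0.16 (adjusted p = 7.3e-07), and all 3 tested probe sets of Mmp14 were higher in tumors than in control tissue.

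Mmp12 and Mmp7 were higher than in control tissue in tumors and in both hyperplasias, and tumors against large hyperplasias gave no call for either. Mmp12, the elastase of macrophages, had signals of 160, 17.1, 41.0 and 43.2 in control tissue, 740, 445, 631, 1587 and 700 in small hyperplasias, and 2661, 2547, 3813, 2137 and 1618 in large hyperplasias. Tumors ran from 152 over a median of 1774 to 2583, with tumor 9 lowest and the only one within the range of control tissue. Mmp12 was higher than in control tissue in tumors (4.36 ± 0.51, adjusted p = 2.8e-08), large hyperplasias (5.21 ± 0.58, adjusted p = 7.9e-08) and small hyperplasias (3.52 ± 0.58, adjusted p = 6.2e-05). Between tumors and large hyperplasias the difference did not pass the test (-0.86 ± 0.47, adjusted p = 0.12). Macrophage markers summed to values between 6720 and 10300 in control tissue, 9598 and 14580 in small hyperplasias, 14600 and 19090 in large hyperplasias and 8280 and 14510 in tumors. None of the 10 was below 30 on every array of a tissue group. Against control tissue 5 of 10 were called higher in tumors, 9 in large and 7 in small hyperplasias, and none lower. The shares of all tested probe sets called higher were 33.1%, 25.5% and 16.6% in the same order. In tumors against large hyperplasias 1 was higher and 7 lower, against 20.8% and 32.7%. The part of macrophages in the Mmp12 signal was not tested.

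Mmp7, matrilysin, an epithelial protease in mouse tissues, had signals of 8.31, 4.66, 2.09 and 8.26 in control tissue. It reached 341, 23.5, 270, 228 and 268 in small hyperplasias, 36.5, 86.1, 141, 40.9 and 517 in large hyperplasias, and ran from 26.4 over a median of 110 to 348 in tumors. No lesion was as low as the highest control tissue, though small hyperplasia 2 and tumor 5 were below 30. Mmp7 was at least 3.43-fold higher than control tissue in tumors (2.51 ± 0.55, adjusted p = 2.7e-04), at least 3.29-fold in large hyperplasias (2.48 ± 0.63, adjusted p = 0.0024) and at least 5.59-fold in small hyperplasias (3.17 ± 0.63, adjusted p = 4.9e-04). Tumors and large hyperplasias differed by 0.03 ± 0.51 (adjusted p = 0.96).

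The remaining Mmp genes moved little or were dim. Mmp23, a membrane-anchored protease, rose in tumors against control tissue (0.76 ± 0.20, adjusted p = 0.0019), but its other probe set was not (0.11 ± 0.20, adjusted p = 0.65). Mmp11, stromelysin 3, had medians of 46.3 in tumors and 61.8 in control tissue (0.00 ± 0.31, adjusted p = 0.99). Mmp19 was not called by the probe set that represents it (0.34 ± 0.22, adjusted p = 0.17) and was lower by the other (-0.47 ± 0.21, adjusted p = 0.044). The collagenases Mmp1a and Mmp1b, both with TGAGTCA and TATAAA before the start, stayed below 30 on all 25 tissue arrays, at up to 16.6 and 23.7, as did Mmp20, the enamel protease, and Adamts19. Mmp16, Mmp17, Mmp24, Adamts7, Adamts8, Adamts16 and Adamts20 also had medians under 30 in both groups, which makes 11 genes that were not tested in tumors against control tissue.

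**Figure D2:**
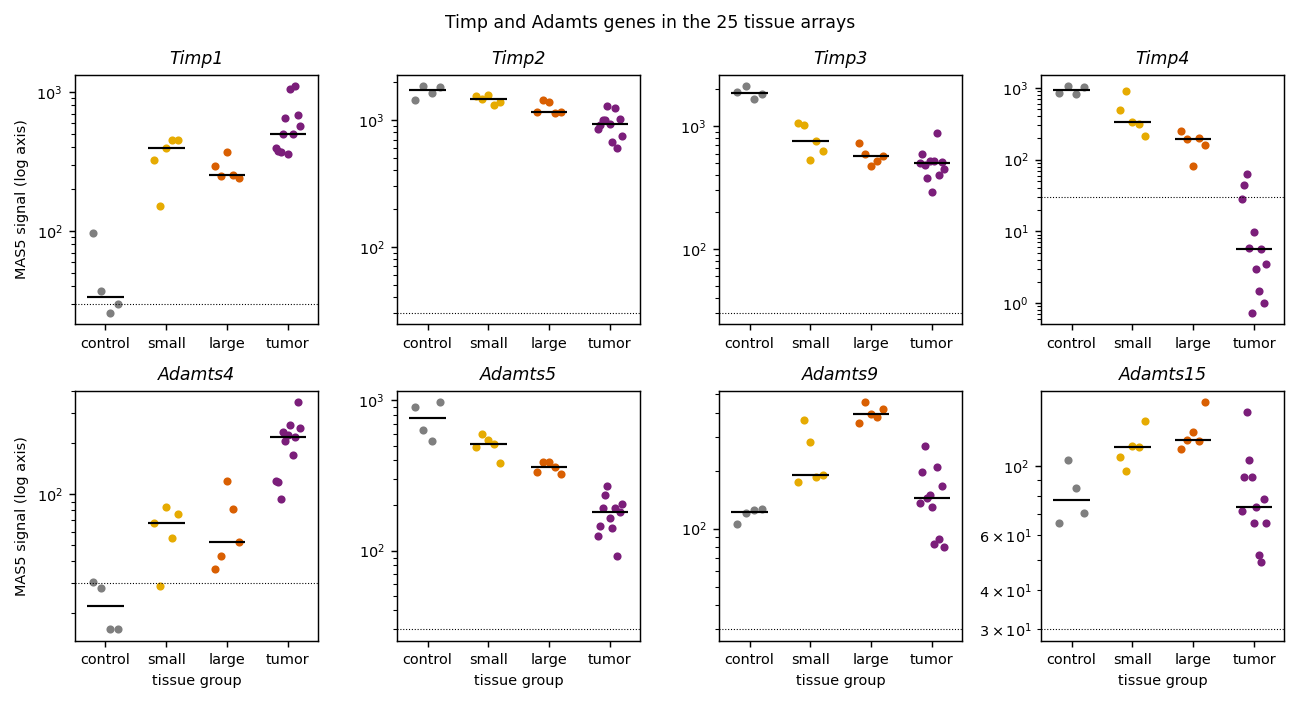
MAS5 signal (log axis) of the 4 Timp genes and of 4 Adamts genes on the 25 tissue arrays by tissue group, with 1 point per array, a bar at the group median and a dotted line at 30. Timp1 and Timp4 part in opposite directions from control tissue, and Adamts9 is highest in large hyperplasias (353 to 456).

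Among the inhibitors, Timp1, the secreted inhibitor that binds the Mmp9 precursor, was higher in every lesion. It had signals of 97.0, 36.8, 25.7 and 29.8 in control tissue, 323, 152, 398, 448 and 454 in small hyperplasias and 296, 250, 368, 253 and 242 in large hyperplasias, and ran from 361 over a median of 498 to 1107 in tumors. No lesion overlapped control tissue. The differences from control tissue were 3.29 ± 0.29 in tumors (adjusted p = 1.6e-10), 2.34 ± 0.33 in large hyperplasias (adjusted p = 2.7e-06) and 2.58 ± 0.33 in small hyperplasias (adjusted p = 2.4e-06), and tumors exceeded large hyperplasias by 0.95 ± 0.27 (adjusted p = 0.0041).

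Timp4, known from heart and adipose tissue, was lower in every kind of lesion than in control tissue. Its signals were 859, 1065, 834 and 1021 in control tissue, 491, 897, 335, 316 and 214 in small hyperplasias and 252, 193, 82.7, 201 and 161 in large hyperplasias. Tumors 1, 2 and 3 had signals of 28.3, 43.8 and 63.2 and the other tumors 0.729 to 9.67. Only small hyperplasia 2 lay within the range of control tissue. Timp4 was lower than in control tissue in tumors (-5.17 ± 0.36, adjusted p = 2.1e-12), in large hyperplasias (-2.38 ± 0.42, adjusted p = 4.7e-05) and in small hyperplasias (-1.20 ± 0.42, adjusted p = 0.029), the last of which was lost on leaving out any of 5 single samples (adjusted p up to 0.081, without small hyperplasia 5). It was also lower in tumors than in large hyperplasias (-2.79 ± 0.33, adjusted p = 2.1e-07), and its other probe set gave -4.49 ± 0.24 in tumors against control tissue. The 6 adipocyte markers summed to values between 34420 and 37890 in control tissue, 16600 and 21580 in small hyperplasias, 14060 and 16970 in large hyperplasias and 674 and 6086 in tumors, with Lep below 30 on all tumor arrays and all 6 lower in tumors than in control tissue. The part of the fat content in the Timp4 signal was not tested.

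Timp3, the inhibitor bound to the matrix, had signals of 1900, 2137, 1666 and 1843 in control tissue, 1067, 1032, 528, 765 and 634 in small hyperplasias and 727, 598, 471, 519 and 570 in large hyperplasias, and ran from 292 over a median of 500 to 884 in tumors. Every lesion was below every control tissue. The differences from control tissue were -1.92 ± 0.19 in tumors (adjusted p = 1.4e-09), -1.69 ± 0.22 in large hyperplasias (adjusted p = 6.2e-07) and -1.26 ± 0.22 in small hyperplasias (adjusted p = 9.7e-05), and all 4 probe sets of Timp3 were lower in tumors. Tumors and large hyperplasias differed by -0.23 ± 0.17 (adjusted p = 0.28), whereas the other 3 probe sets ran the opposite way, at 0.54 ± 0.19 (adjusted p = 0.021), 0.35 ± 0.16 (adjusted p = 0.059) and 0.25 ± 0.15 (adjusted p = 0.16), so that the direction of Timp3 between these groups depended on the probe set.

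Timp2, which binds Mmp14 and the Mmp2 precursor, had signals of 1441, 1862, 1632 and 1830 in control tissue, 1537, 1475, 1583, 1318 and 1382 in small hyperplasias and 1156, 1432, 1397, 1128 and 1162 in large hyperplasias. In tumors it ran from 603 over a median of 937 to 1296, below every control tissue. It fell in tumors against control tissue (-0.87 ± 0.14, adjusted p = 6.8e-06), and 3 further probe sets were lower (-1.95 to -1.17), whereas the remaining one did not pass the test (-0.20 ± 0.16, adjusted p = 0.29). In large hyperplasias it was lower by less (-0.43 ± 0.16, adjusted p = 0.036), a call that was lost on leaving out any of 6 single samples (adjusted p up to 0.096, without control tissue 2). In small hyperplasias it was not called, but 3 of its other probe sets were lower than in control tissue (-0.64, -0.98 and -1.13).

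Among the proteoglycan-cutting proteases, Adamts4 rose and Adamts5 fell. Adamts4, aggrecanase 1, had signals of 30.2, 27.8, 15.99 and 16.01 in control tissue, 67.0, 28.7, 83.7, 55.0 and 75.8 in small hyperplasias and 35.9, 43.2, 119, 81.2 and 52.0 in large hyperplasias. Tumors ran from 93.1 over a median of 216 to 346, and the lowest 3 tumors (tumors 1 to 3, at 119, 117 and 93.1) were the closest to large hyperplasia 3, at 119. It was higher than in control tissue in tumors (2.44 ± 0.26, adjusted p = 8.4e-09), large hyperplasias (1.03 ± 0.30, adjusted p = 0.0074) and small hyperplasias (0.99 ± 0.30, adjusted p = 0.015), and higher in tumors than in large hyperplasias (1.41 ± 0.24, adjusted p = 3.2e-05). Adamts5, aggrecanase 2, had signals of 900, 637, 540 and 975 in control tissue, 493, 594, 546, 512 and 385 in small hyperplasias and 333, 390, 391, 359 and 324 in large hyperplasias, and ran from 92.1 over a median of 182 to 268 in tumors. Tumors lay below all large hyperplasias, and these below all control tissues. The differences from control tissue were -2.02 ± 0.18 in tumors (adjusted p = 1.9e-10), -1.02 ± 0.21 in large hyperplasias (adjusted p = 2.4e-04) and -0.55 ± 0.21 in small hyperplasias (adjusted p = 0.043), the last lost on leaving out any of 6 single samples (adjusted p up to 0.16, without control tissue 4). Tumors and large hyperplasias differed by -1.01 ± 0.17 (adjusted p = 1.7e-05), and all 3 tested probe sets of Adamts5 fell in tumors against control tissue, while the remaining one was too dim to test.

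Adamts9, Adamts15 and Adamts1, which also cut versican or aggrecan, had their highest group median in large hyperplasias. Adamts9 had signals of 105, 120, 125 and 126 in control tissue, 175, 366, 284, 186 and 190 in small hyperplasias and 353, 456, 395, 383 and 417 in large hyperplasias, and ran from 80.4 over a median of 144 to 269 in tumors. It was higher than in control tissue in large (1.62 ± 0.25, adjusted p = 8.7e-06) and small hyperplasias (0.87 ± 0.25, adjusted p = 0.0096), and lower in tumors than in large hyperplasias (-1.40 ± 0.20, adjusted p = 2.7e-06). In tumors against control tissue it was not called (0.22 ± 0.22, adjusted p = 0.37), whereas both its other tested probe sets were called lower, at -0.34 ± 0.15 (adjusted p = 0.045) and -0.40 ± 0.15 (adjusted p = 0.025). Adamts15 had signals of 65.6, 105, 85.0 and 71.0 in control tissue, 107, 96.4, 116, 115 and 139 in small hyperplasias and 114, 122, 129, 120 and 161 in large hyperplasias, and ran from 49.1 over a median of 74.1 to 149 in tumors. Large hyperplasias exceeded control tissue (0.58 ± 0.19, adjusted p = 0.016; adjusted p = 0.060 without control tissue 1) and tumors were below large hyperplasias (-0.61 ± 0.15, adjusted p = 0.0017). For Adamts1 the same contrasts gave 0.70 ± 0.20 (adjusted p = 0.0052) and -0.95 ± 0.16 (adjusted p = 2.0e-05).

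Other Adamts calls were of dimmer genes. Adamts10, known from fibrillin microfibrils, had signals of 94.5 to 110 in control tissue, 82.8 to 124 in large hyperplasias and 40.6 to 69.2 in tumors. It was lower in tumors against control tissue (-0.76 ± 0.13, adjusted p = 8.6e-06) and against large hyperplasias (-0.70 ± 0.12, adjusted p = 2.2e-05). Adamts18 was below 30 in all 11 tumors, at 1.47 to 25.1, against 56.5 to 59.4 in large hyperplasias and 23.6 to 60.6 in control tissue. It was at least 1.92-fold lower in tumors than in large hyperplasias (-1.65 ± 0.19, adjusted p = 8.9e-08). Adamts18 was also called lower in tumors than in control tissue, at medians of 5.7 and 41.3. Adamts3, a procollagen N-propeptidase, fell in tumors against control tissue (-0.43 ± 0.17, adjusted p = 0.025), which was lost without control tissue 2 (adjusted p = 0.092) or 4 (adjusted p = 0.058). Adamts16 was lower (-0.51 ± 0.20, adjusted p = 0.038) and Adamts6 higher (0.58 ± 0.20, adjusted p = 0.017) in tumors than in large hyperplasias, at medians of 19.0 and 36.1 in tumors, and both calls were lost on leaving out single samples. The other probe set of Adamts16 was not tested, as its medians of 15.7 in tumors and 4.45 in large hyperplasias were below 30, and its difference ran the opposite way (0.86 ± 0.22). The other probe set of Adamts6 was higher in tumors than in large hyperplasias (0.87 ± 0.21, adjusted p = 0.0013) and also than in control tissue (1.13 ± 0.23, adjusted p = 1.2e-04), where the representing one was not called (0.42 ± 0.22, adjusted p = 0.089).

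**Figure D3:**
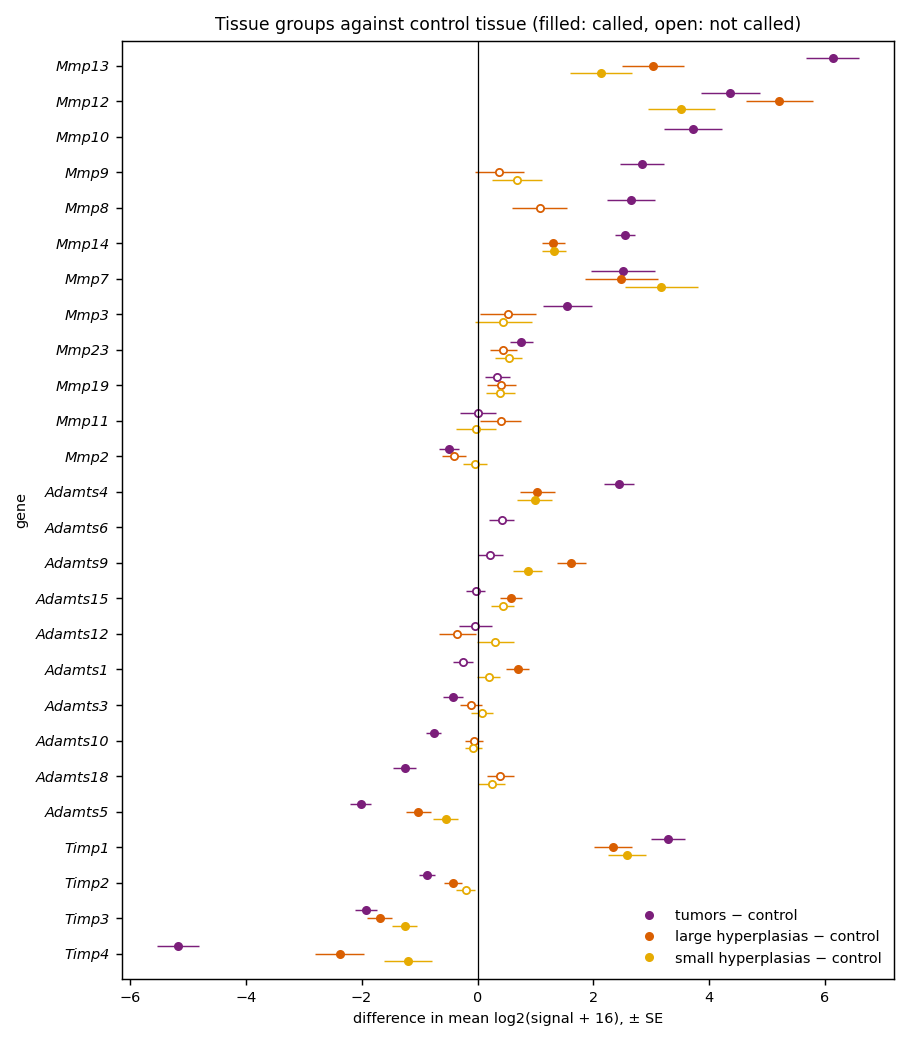
Differences in mean log2(signal + 16) from control tissue, with the standard error of limma, for the 26 genes tested in tumors against control tissue, by family and in order of the difference in tumors. Filled points passed an adjusted p of 0.05 and open points did not; Mmp13 lies farthest right at 6.13 and Timp4 farthest left at -5.17, and points are missing where a gene was not tested in that comparison.

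Against the same control tissues, 9 members were higher and 4 lower of 25 tested in large hyperplasias, where 25.5% of all tested probe sets were higher and 19.9% lower (45.4% in either direction), and the groups did not overlap for 14 members, against 37.4% of all tested probe sets. In small hyperplasias 7 were higher and 3 lower of 23 tested, against 16.6% and 14.2% of all tested probe sets (30.8% in either direction), and 7 members did not overlap, against 22.1%. These comparisons share the control samples with each other and with tumors, so their values are set side by side and were not counted as repeats. In tumors against large hyperplasias 9 members were higher and 9 lower of 26 tested, against 20.8% and 32.7% of all tested probe sets (4946 higher and 7760 lower, or 5955 and 6117 after quantile normalization, and 53.5% in either direction), 8 members did not overlap, against 23.2%, and 6 Mmp genes were higher with none lower whereas 2 Adamts genes were higher and 7 lower. Between large and small hyperplasias only Mmp12 (1.70 ± 0.55, adjusted p = 0.050) and Adamts9 (0.75 ± 0.23, adjusted p = 0.042) were called, both higher in large hyperplasias, of 25 tested, against 9.43% of all tested probe sets in either direction (4.89% higher and 4.54% lower), and 4 members did not overlap, against 9.4%. Both calls were lost without most single samples, with adjusted p up to 0.12, and neither of the other tested probe sets of Adamts9 was called (0.24 and 0.37), while the other probe set of Timp4 was lower (-0.93 ± 0.26, adjusted p = 0.027). Without tumors 1 to 3, whose arrays had the highest medians, 13 members were higher and 7 lower in tumors than in control tissue, where Adamts6 and Adamts7 were gained and Mmp2 was lost, and 12 were higher and 9 lower than in large hyperplasias.

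The 11 tumors differed among themselves more in some members than in others. The highest tumor was 17.2 times the lowest for Mmp10, 17.0 times for Mmp12, 16.9 times for Mmp8, 11.4 times for Mmp13, 8.16 times for Mmp3 and 6.96 times for Mmp9. For Mmp14 and Timp2 this ratio was 2.19 and 2.15, and it was 3.07 for Timp1. Correlations over the tumors were computed on the log2 scale for 31 pairs, 21 among Mmp3, Mmp7, Mmp8, Mmp9, Mmp10, Mmp12 and Mmp13 and 10 between a member and a summed marker list. Permutation tests were adjusted over the 31 pairs, and 11 pairs passed by Pearson's r.

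**Figure D4:**
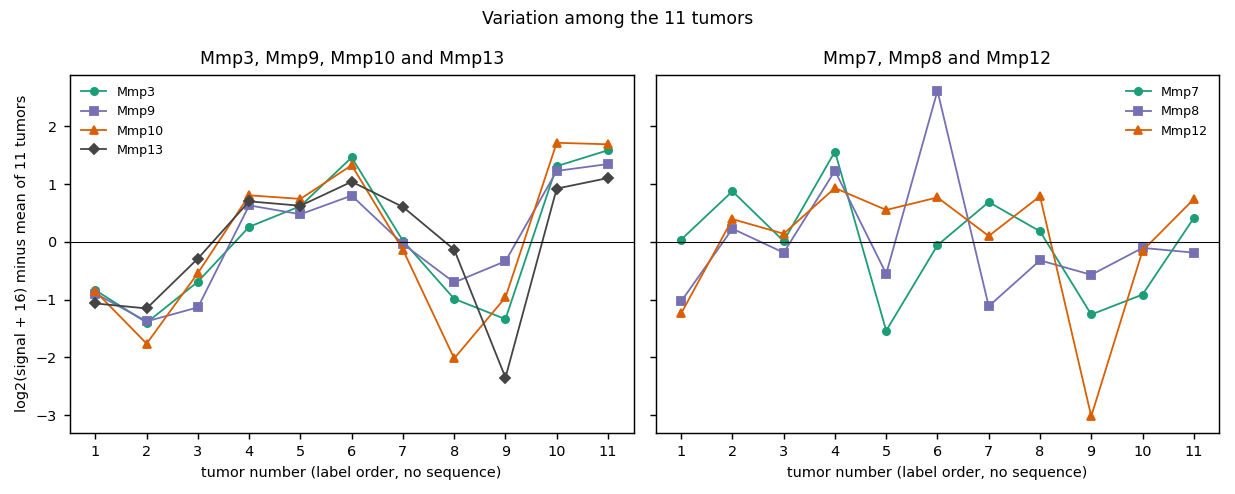
Deviation of log2(signal + 16) from the mean of the 11 tumors, by tumor number as labelled, for Mmp3, Mmp9, Mmp10 and Mmp13 (left) and for Mmp7, Mmp8 and Mmp12 (right). Lines join the points of 1 gene; the 4 genes on the left deviate together, and tumors 1, 2 and 3 are below the mean in all of them.

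Mmp3, Mmp9, Mmp10 and Mmp13 varied together. Mmp3 and Mmp10, the stromelysins, had a Pearson r of 0.95 (adjusted permutation p = 6.2e-04, Spearman rho 0.94 with adjusted p = 8.3e-04, n = 11), with r = 0.97 without tumors 8 and 10 and r = 0.93 over tumors 4 to 11. Mmp9 and Mmp10 had r = 0.92 (adjusted permutation p = 0.0015, rho 0.88 with adjusted p = 0.0032), with r = 0.95 without tumors 8 and 10 and r = 0.98 over tumors 4 to 11. Mmp3 and Mmp9 had r = 0.92 (adjusted permutation p = 0.0013, rho 0.89 with adjusted p = 0.0032), and Mmp3 and Mmp13 r = 0.88 (adjusted permutation p = 0.0017, rho 0.95 with adjusted p = 8.3e-04). All 6 pairs of these 4 genes passed, with r of at least 0.74 and an adjusted permutation p of at most 0.025, and none had an r under 0.68 over tumors 4 to 11, nor under 0.81 after the 2 tumors farthest from the median were left out. Of these genes Mmp3, Mmp10 and Mmp13 lie in the chromosome 9 cluster and have TGAGTCA in the stretches printed above. Mmp9 lies elsewhere, and no promoter was matched for it.

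Mmp7 and Mmp8 gave no call with these 4 genes, and Mmp12 gave one, with Mmp13. Mmp7, which has the same letters before 1 of its 2 annotated starts, had r between -0.15 and 0.19 with Mmp3, Mmp9, Mmp10 and Mmp13, none past the test. Mmp8 had r between 0.34 and 0.42 with the same genes, none past the test. Mmp12 and Mmp13 had r = 0.79 (adjusted permutation p = 0.022), with r = 0.89 over tumors 4 to 11 and r = 0.67 without tumors 9 and 2, and rho was 0.54 (adjusted p = 0.18). Mmp12 also has these letters before 1 of its 2 annotated starts. With Mmp3, Mmp9 and Mmp10 its r was 0.48, 0.28 and 0.30, none past the test.

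With the summed macrophage markers Mmp12 had r = 0.89 (adjusted permutation p = 0.0030, rho 0.73 with adjusted p = 0.041), and r = 0.54 without tumors 9 and 1, so that the relation rests in part on these samples. Mmp2 had r = 0.93 with the summed fibroblast markers (adjusted permutation p = 6.2e-04), Adamts12 r = 0.87 (adjusted permutation p = 0.0027) and Mmp14 r = 0.84 (adjusted permutation p = 0.0043), and over tumors 4 to 11 these were 0.91, 0.70 and 0.72. Spearman's rho was 0.94, 0.86 and 0.88 in the same order, and r without tumors 5 and 2 was 0.92, 0.83 and 0.81. Mmp13 (r = 0.61, adjusted permutation p = 0.11) and Adamts5 (r = 0.59, adjusted permutation p = 0.12) did not pass with the fibroblast markers. Adamts12 had medians of 242 in tumors and 252 in control tissue and was not called there (-0.04 ± 0.28, adjusted p = 0.91). Mmp8 and the neutrophil markers had r = 0.51 (adjusted permutation p = 0.23), and Mmp9 and the neutrophil markers r = 0.61 (adjusted permutation p = 0.11). By Spearman's rho Mmp9 passed (0.75, adjusted p = 0.035) and Mmp8 did not (0.44, adjusted p = 0.18). Without tumors 9 and 6 r was 0.74 for Mmp9 and 0.21 for Mmp8. With the cornified epithelial markers neither Timp1 (r = 0.48, adjusted permutation p = 0.23) nor Mmp10 (r = -0.34, adjusted permutation p = 0.41) passed. The fibroblast markers summed to 12330 to 28160 in tumors and 20250 to 24010 in control tissue.

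Other genes of pericellular proteolysis were read from lists of their own, in tumors against control tissue, where 33.1% of all tested probe sets were higher and 35.8% lower. The counts of these short lists stand against 68.9% of all tested probe sets called in either direction. Of the partners and inhibitors of Mmps, 2 were higher and 4 lower of 7 tested. Reck, a membrane-anchored Mmp inhibitor, averaged 96.5 ± 29.0 in tumors and 415 ± 47.1 in control tissue (SD, n = 11 and 4; -1.98 ± 0.17, adjusted p = 8.6e-11). Tfpi2, a secreted serine protease inhibitor of the matrix, averaged 345 ± 212 in tumors and 30.8 ± 14.4 in control tissue (2.75 ± 0.35, adjusted p = 1.3e-07). Spock2 was at least 3.38-fold lower in tumors, which were all below 30, than in control tissue (-1.99 ± 0.21, adjusted p = 4.4e-09). Of the plasminogen system 3 of 3 tested genes were higher, namely Serpinb2 (at least 22.1-fold, control tissue being below 30, adjusted p = 4.1e-15), Plaur, the urokinase receptor (1.87 ± 0.26, adjusted p = 4.8e-07), and Plat, tissue plasminogen activator (1.33 ± 0.35, adjusted p = 0.0017).

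Of the Adam proteases, the membrane-anchored relatives of Adamts, 5 were higher and 3 lower of 10 tested, led by Adam8, a protease of leukocytes, at 470 ± 210 in tumors and 54.0 ± 62.1 in control tissue (3.02 ± 0.33, adjusted p = 9.7e-09). The Adamts-like proteins, which lack the protease domain, had none higher and 3 lower of 4 tested, with Adamtsl1 lowest (-1.30 ± 0.14, adjusted p = 1.4e-08). Of cathepsins and cystatins 7 were higher and 2 lower of 10, and Cst6, a cystatin of stratified epithelium, averaged 3620 ± 1220 in tumors and 18.2 ± 21.2 in control tissue (6.83 ± 0.29, adjusted p = 1.1e-16). The 9 cornified epithelial markers, of which 5 were below 30 on every control tissue array, summed to 11460 to 34020 in tumors and 132 to 235 in control tissue, and their part in the Cst6 signal was not tested. Of the matrix substrates 4 were higher and 2 lower of 7 tested. Vcan, versican, the proteoglycan cut by Adamts1, Adamts4, Adamts5, Adamts9 and Adamts15, averaged 302 ± 100 in tumors and 48.2 ± 12.5 in control tissue (2.25 ± 0.21, adjusted p = 4.8e-10).

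In sorted basal cells Mmp14 was above background, as were several Adamts and Timp genes, whereas most of the other Mmp genes that were higher in tumors were below it. Of the 37 genes, 11 were at or above 30 on all 6 arrays, which were Adamts1, Adamts4, Adamts5, Adamts9, Mmp2, Mmp14, Mmp17, Mmp24, Timp1, Timp2 and Timp3, and 13 were below 30 on all 6. Among those below 30 were Mmp7, Mmp8, Mmp9, Mmp10, Mmp12 and Mmp13, with a highest signal of 18.8. The targeted gene was low in the cells that carried the deletion, with Myc at 141, 428 and 42.3 in Myc-deficient cells and 1480, 1680 and 1870 in control cells. Loss of Myc gave no call among the 17 members tested by limma, nor among the 19737 probe sets tested, of which 1216 had an unadjusted p under 0.05 by limma and 880 by the methods' t-test, against 1 of the 17 members by limma (Adamts10). With the pool number as a block in limma, 2147 were under 0.05 unadjusted, and none passed after adjustment. Among members with a median of at least 100, those under 0.05 were Adamts4, Adamts10 and Timp3. Even the probe set of Myc itself was not called with 3 pools in each group. The study, by its own criteria, reports impaired expression of many genes in Myc-deficient basal cells.

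**Figure D5:**
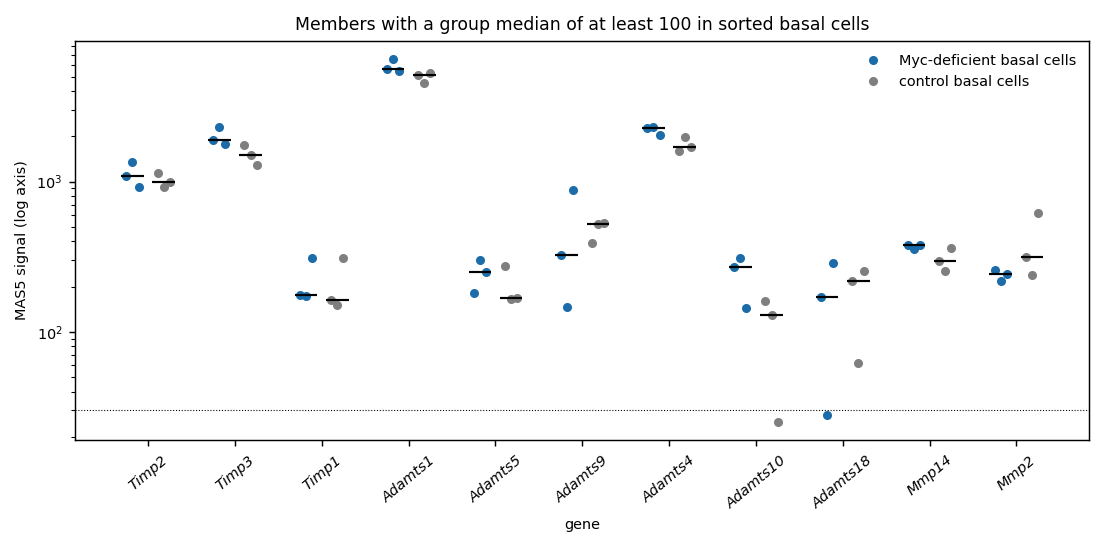
MAS5 signal (log axis) of the 11 members whose median reached 100 in 1 or both groups, for Myc-deficient (left of each pair, n = 3) and control (right, n = 3) basal cells, with 1 point per pool, a bar at the group median and a dotted line at 30. Levels are not comparable between genes. By the probe sets shown, the groups overlap within a gene except for Adamts1, Adamts4 and Timp3.

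Adamts1 had signals of 5639, 6560 and 5428 in Myc-deficient cells and 5106, 4530 and 5248 in control cells (0.24 ± 0.17, adjusted p = 0.84). Adamts4 had signals of 2289, 2319 and 2036 in Myc-deficient cells and 1611, 1981 and 1699 in control cells (0.33 ± 0.20, adjusted p = 0.83). Timp3 had signals of 1885, 2327 and 1772 in Myc-deficient cells and 1752, 1505 and 1283 in control cells (0.40 ± 0.22, adjusted p = 0.82). In these 3 genes alone among the 17 tested, each by its representing probe set, the Myc-deficient pools did not overlap the control pools. All 3 had higher signals without passing the test, against 12.1% of all tested probe sets that did not overlap. Counting every tested probe set of the members, 8 of 35 did not overlap, among them probe sets of Timp2. With the pool number as a block, limma gave 0.24 ± 0.12 for Adamts1 (adjusted p = 0.5) and 0.33 ± 0.14 for Adamts4 (adjusted p = 0.44). For Timp3 it gave 0.40 ± 0.16 (adjusted p = 0.42).

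Adamts10 had signals of 270, 310 and 145 in Myc-deficient cells and 160, 129 and 25.1 in control cells (1.28 ± 0.54, adjusted p = 0.80). Adamts5 had signals of 181, 300 and 250 in Myc-deficient cells and 274, 165 and 168 in control cells (0.26 ± 0.33, adjusted p = 0.91). For Adamts9 the signals were 326, 147 and 883 in Myc-deficient cells and 390, 526 and 530 in control cells (-0.42 ± 0.51, adjusted p = 0.91). These groups overlapped, with the wide spread of Adamts9 lying in the Myc-deficient pools. Within pools of the same number Adamts10 was higher in the Myc-deficient pool in 3 of 3 pairs (1.28 ± 0.34, adjusted p = 0.28 in limma with the number as a block). By its other probe set Adamts10 was lower in Myc-deficient pool 3, at 21.3 against 35.65 in control pool 3. Adamts18 was as uneven in both groups, at 170, 27.8 and 287 in Myc-deficient cells and 218, 62.0 and 254 in control cells (-0.33 ± 0.70, adjusted p = 0.95).

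Mmp14 had signals of 380, 357 and 380 in Myc-deficient cells and 297, 255 and 363 in control cells (0.29 ± 0.26, adjusted p = 0.87). Mmp2 had signals of 260, 219 and 241 in Myc-deficient cells and 315, 240 and 623 in control cells (-0.57 ± 0.36, adjusted p = 0.83), with control pool 3 apart. No other Mmp gene had a group median as high as 100 in these cells, and both had overlapping groups. By pool number Mmp14 was higher in 3 of 3 Myc-deficient pools (adjusted p = 0.68 with the block) and Mmp2 lower in 3 of 3 (adjusted p = 0.52). Other probe sets of Mmp14 ran lower in Myc-deficient than in control cells in pool 2 (130.1 against 134.9) or in pool 3 (219.4 against 280.5). Of the 17 members tested, 41.2% ran the same way in all pairs, against 34.6% of all tested probe sets. Timp1 had signals of 177, 173 and 309 in Myc-deficient cells and 163, 151 and 311 in control cells (0.09 ± 0.37, adjusted p = 0.98). Timp2 had signals of 1083, 1351 and 923 in Myc-deficient cells and 1142, 924 and 989 in control cells (0.12 ± 0.23, adjusted p = 0.94). Some other probe sets of Timp2 did not overlap and were higher in Myc-deficient cells. Their signals there were 191 to 242, 266 to 283 and 1040 to 1170, against 101 to 166, 151 to 211 and 692 to 880 in control cells. The remaining probe sets of Timp2 overlapped, and none was called. In Timp1 the pools numbered 3 were the highest of both groups. Fibroblast markers summed to 2480 to 4042 in Myc-deficient and 3222 to 3773 in control cells, with Fap below 30 on all 6 arrays, and their part in the Mmp2 and Timp signals was not tested.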

How the data were processed

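Signals were deposited by the authors as linear intensity values of 31 Affymetrix Mouse Genome arrays, 1 per sample, computed with the MAS5 algorithm in Expression Console (version not given in the sources used here) and scaled to a target of 100. NuGEN kits amplified the RNA of sorted cells, and tissue RNA was labelled in 1 cycle. A single scaling factor per array leaves differences in RNA composition between tissues in the signals. The table holds 45101 probe sets, of which 64 controls were left out. Symbols came from the platform annotation, with 34945 probe sets having 1 symbol, 932 several and 9160 none.

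limma 3.58.1, under R 4.3.3, was fitted to log2(signal + 16) with an intensity trend in eBayes, in 1 model for the 25 tissue arrays and another for the 6 arrays of sorted cells. Probe sets were tested where the higher group median reached 30, with Benjamini-Hochberg adjustment over all of them, and called at an adjusted p under 0.05. Where all arrays of a group lay under 30, the fold is a lower bound, set between 30 and the other group's mean of log2 signals. Values in every sample, or the lowest, median and highest in tumors, are given for members called in a tissue comparison with a brighter median of at least 100 and no overlap there, and in sorted cells for members with a median of at least 100. From each list of related genes up to 3 called genes were named. Members and lists were chosen with earlier results of these data known. Other members are given by ranges and counts, and by name where called; those below 30 or not called that are named were chosen after their values were seen. Correlations over tumors used 100000 permutations, two-sided, in SciPy 1.17.1. The number of arrays limits the precision.

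In sorted cells the deviations of every Myc-deficient pool were closest to those of the equally numbered control pool (correlations of 0.221, 0.231 and 0.259). The numbers were therefore also used as pairs, and a fit with that block changed no call. The labels do not state such pairs, and with 3 pools in each group the match may be chance. Values in sorted cells come from the fit without the block unless the block is mentioned. Other settings tried were a floor at 30, no offset, no filter, quantile normalization, fits of the compared groups only or without trend, a replicate block, the methods' t-test, the methods' rule of a ratio of medians above 2, any probe set of a gene, leaving out each sample, and, chosen after seeing the data, leaving out tumors 1 to 3. The procedure was tested on simulated data.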

Additional observations from a re-analysis of the deposited data

Results flagged for a closer look

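In 4 of the 40 groups of 4 or 5 samples examined for the named genes, 1 sample stood far from the others. For normally distributed values the cut-off used flags about 1 group in 20 by chance. That distribution was not checked for these linear signals, and the genes share arrays. Mmp12 was 1590 in small hyperplasia 4, against 445 to 740 in the other small hyperplasias. Mmp13 was 389 in large hyperplasia 3, against 167 to 202 in the others, and Mmp7 was 517 in large hyperplasia 5, against 36.5 to 141 in the others. Timp1 was 97.0 in control tissue 1, against 25.7 to 36.8 in the other control tissues, and Mmp12 was also highest in that sample, at 160 against 17.1 to 43.2.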

How the results depend on the processing

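For 62 called tissue differences of named members, 533 values of the representing probe sets under the alternatives all kept their direction, and 45 no longer passed. The methods' rule and any probe set of a gene are not among the 533. By its other probe set Adamts16 ran the opposite way in tumors against large hyperplasias, as given above. Leaving out samples enters here once per difference, by the sample with the highest adjusted p, and over all single samples 49 such losses occurred. Members not called otherwise were gained 45 times over the settings and tissue comparisons, among them Mmp8 in large and Mmp3 in both hyperplasias against control tissue. In sorted cells 85 of 88 values kept the direction and none passed. Under the methods' rule tumors had 4 members below control tissue, against 8, 5 were lower in tumors than in large hyperplasias, against 9, 1 was lower in large than in small hyperplasias and 1 was higher in Myc-deficient basal cells. Of 3 members lower in small hyperplasias than in control tissue, 1 was left with no offset and 1 by the methods' t-test. Both members higher in large than in small hyperplasias were lost (0 called) with no offset, a floor at 30, no filter or the t-test. Where none was lower in large than in small hyperplasias, 1 was with a floor at 30, 1 after quantile normalization, 1 with any probe set of a gene and 4 with only these groups fitted.

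Replicate numbers of the tissue groups do not pair samples, whose same-numbered deviations correlated at -0.146 to 0.106. With a replicate block 3 members were lower in large than in small hyperplasias, against 0, and the counts against control tissue were 12 higher and 8 lower in tumors, 10 and 6 in large and 7 and 3 in small hyperplasias. Tumors against large hyperplasias gave 7 and 7, and basal cells 0 and 0.

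Leaving out each sample gave 11 to 12 higher and 7 to 9 lower in tumors against control tissue, 9 to 11 and 3 to 5 in large and 7 to 8 and 1 to 3 in small hyperplasias, 8 to 9 and 8 to 9 in tumors against large hyperplasias, 0 to 2 and 0 to 1 in large against small hyperplasias, and 0 in basal cells. Signals near 30 limit the dim members.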
